A study of Ovis aries with 5 samples.

Results

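The long distal H3K27ac regions of fetal sheep fat are 954 acetylated stretches of 12 kb or more with no H3K4me3 region closer than 5 kb. They were taken from the joint H3K27ac list of the authors, which holds 35266 regions found in both libraries, 34899 of them on chromosomes 1 to 26. Of these, 23977 lay more than 5 kb from any region of the joint H3K4me3 list, and the 954 make up 3.98% of them. A further 690 autosomal regions reached 12 kb but overlapped or neighboured H3K4me3. Chromosome X held 6 regions of that length, of which 2 were distal, and they were left out. The members were thus chosen by their length and their distance to H3K4me3, and tag counts come from the same peaks as the lengths. These quantities are therefore given as a description, with no test.

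The tissue was perirenal adipose, the fat around the kidney, from pure bred merino fetuses of wild type genotype, given in the sample labels as 132 days after conception. The animals received no treatment and all libraries share this genotype, tissue and stage, so the data hold no contrast between conditions. ChIP-Seq, which sequences the nucleosomal DNA that an antibody pulls down, was done for H3K27ac (Abcam ab4729) and H3K4me3 (Abcam ab8580) on 2 fetuses. Each fetus gave 1 library per mark, numbered replicate 1 or replicate 2 by fetus. Chromatin of whole tissue was used, so a region may be acetylated in fat cells or in other cells of the depot. The labelled tissue was not checked against marker genes, since gene positions were not analysed here. The control was 1 input library pooled over the fetuses. After removal of duplicates the H3K27ac libraries held 144038222 and 145716523 tags (mapped reads), the H3K4me3 libraries 92882463 and 109652707, and the input 26651829. With 2 animals, the difference between the replicates is the only measure of their spread.

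H3K27ac is laid down by acetyltransferases such as CBP and p300 at active promoters and enhancers, whereas H3K4me3 marks promoters. An acetylated region without H3K4me3 is therefore commonly read as a candidate enhancer. Unusually long acetylated stretches are known from other tissues as super-enhancers or stretch enhancers and often lie near genes that set the identity of a cell. The fat around the kidney of a late gestation lamb is rich in brown adipocytes, which produce heat after birth.

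The members ranged from 12000 to 35880 bp in length, with a median of 14576 bp. The middle of the distribution, from the 25th to the 75th percentile, ran from 13054 to 17364 bp. By length, 517 members measured under 15 kb, 318 measured 15 to 20 kb and 119 reached 20 kb. Distal regions below the threshold had a median length of 4228 bp. Although they formed 3.98% of distal regions, the members held 12.1% of distal H3K27ac bases, 15 Mb in all or 0.612% of the autosomes. They held 14.4% of the tags of distal regions in replicate 1 and 13.3% in replicate 2.

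**Figure D1:**
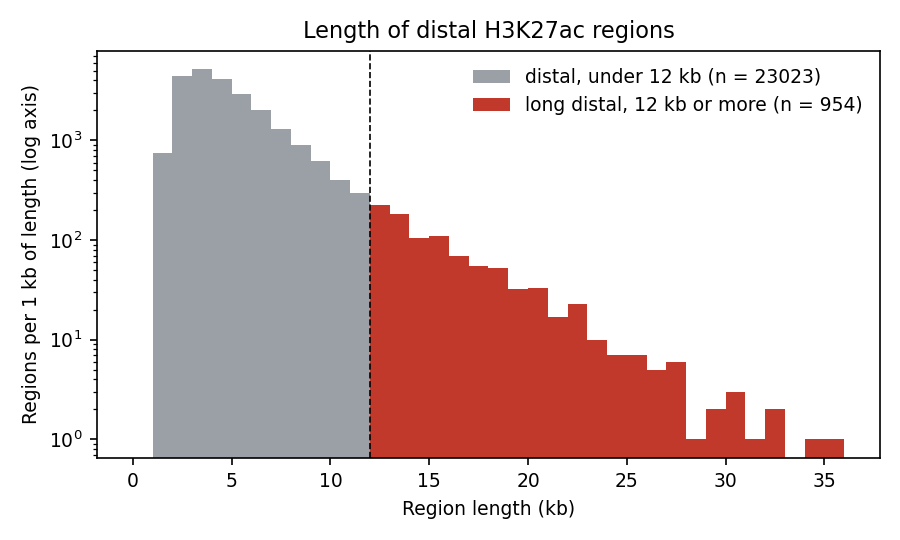
Number of distal H3K27ac regions per 1 kb of length, on a log axis, against region length in kb; the dashed line marks 12 kb. The counts decline with no break at the line, from the 23023 shorter regions in grey to the 954 long regions in red, the longest of which reached 35880 bp.

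The threshold of 12 kb fell within a continuous range of lengths. The shortest members were chr3:35440768-35452768 (12000 bp), chr26:25199809-25211810 (12001 bp) and chr16:34809571-34821581 (12010 bp). Just below it lay chr1:8410310-8422306 (11996 bp), chr8:23614659-23626654 (11995 bp) and chr1:191717770-191729760 (11990 bp). The tag densities of the 3 just inside were 11.1 to 11.8 in replicate 1 and 11.1 to 11.2 in replicate 2, and those of the 3 just outside were 11 to 12.8 and 11.1 to 12.2. Here tag density is the number of tags of the peaks in a region divided by the kb those peaks cover, per 10 M tags of the library. All positions are on Oar_v3.1.

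The longest member was chr19:36530654-36566534, of 35880 bp. It held 8067 tags in replicate 1 and 7760 in replicate 2, at a tag density of 15.7 and 15.4. In replicate 1 it was called as 1 peak of 35716 bp, and in replicate 2 as a peak of 7711 bp followed by another of 26907 bp. The libraries differed in where the call was broken but hardly in tags. The strongest points of the 2 libraries, their summits, lay 1102 bp apart, and the nearest joint H3K4me3 region lay 215427 bp away.

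The next longest member, chr6:6055649-6090120 (34471 bp), was long through replicate 1. It held 7181 tags in replicate 1, in peaks of 6932 and 27402 bp, against 1335 tags in replicate 2, in 1 peak of 7749 bp. The peaks of replicate 2 covered 22.5% of the region. The density was 14.5 in replicate 1 and 11.8 in replicate 2, because each is taken over the bases called in its own library.

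The other members past 31 kb were alike in both libraries in their tags. chr3:80661969-80694850 (32881 bp) held 5993 and 6100 tags, in 2 and 3 peaks. chr7:77020118-77052387 (32269 bp) held 6394 and 6194 tags, also in 2 and 3 peaks, and lay 439315 bp from H3K4me3. chr13:43673205-43704771 (31566 bp) held 5542 and 5411 tags, and its summits lay 14 bp apart although replicate 1 had 2 peaks there, 1 of them above the limit on the false discovery rate (FDR, estimated by the peak caller) of the joint list, and replicate 2 had 4. Of the 5 longest members, 4 thus differed between libraries in the number of peaks but not, by more than a few percent, in tags.

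**Figure D2:**
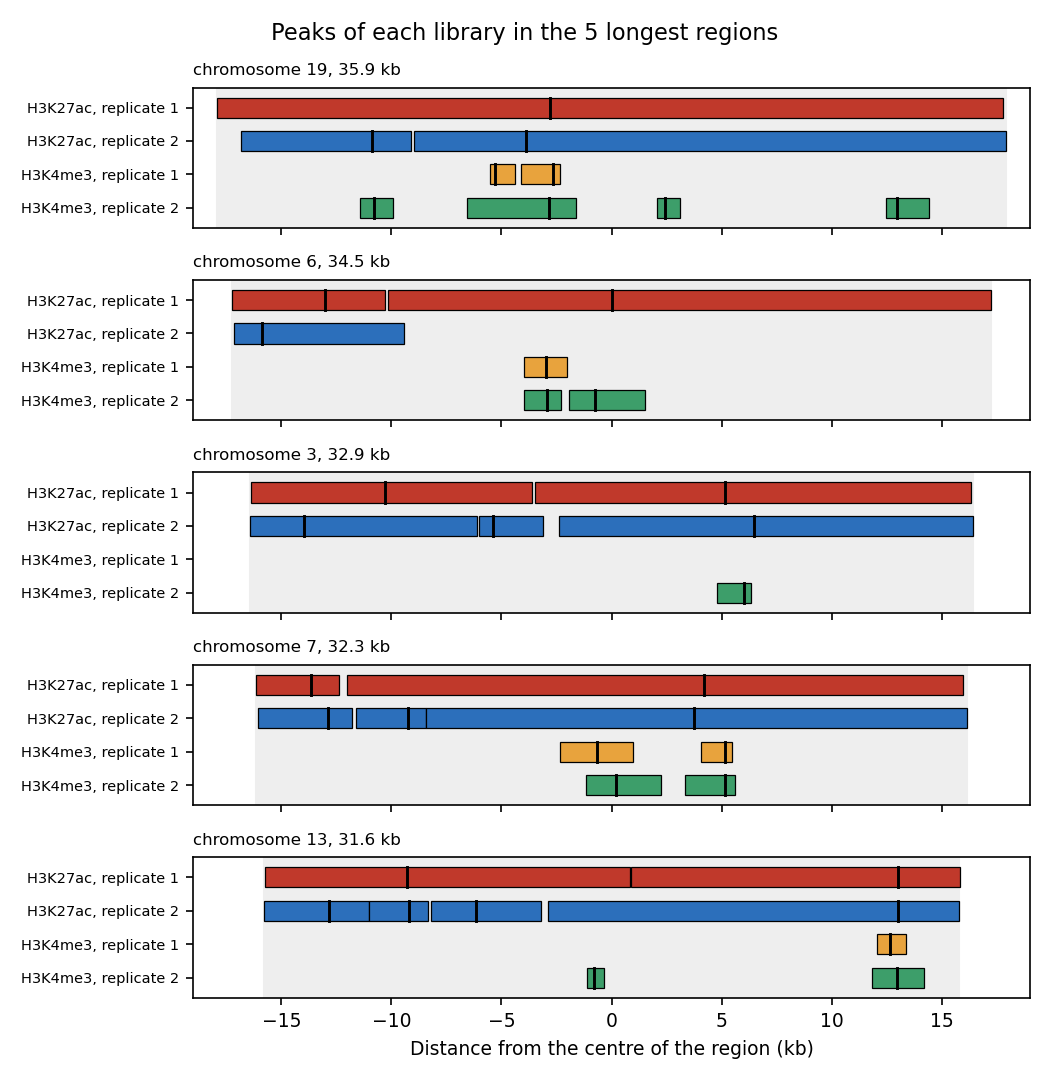
Peaks of each H3K27ac and H3K4me3 library, as bars, along the 5 longest members, with the distance from the centre of each region in kb; the region is shaded grey and black ticks mark summits. In 4 of the 5 the H3K27ac peaks of both libraries span the region, whereas on chromosome 6 those of replicate 2 cover 22.5% of it.

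Tags were denser in the long distal regions than in the shorter ones, in both libraries. Their median tag density was 12 in replicate 1 and 11.4 in replicate 2, against 10.1 and 9.99 in the 23023 distal regions under 12 kb. The ranges overlapped widely. From the 5th to the 95th percentile, members spanned 9.89 to 14.7 (replicate 1) and 9.33 to 14.1 (replicate 2), and shorter distal regions 8.23 to 12.8 and 8.27 to 12.7. The highest values were those of shorter distal regions, at 27.8 and 24.8, against 18.0 and 19.2 in members. Long regions near H3K4me3 were denser still, at a median of 12.8 and 11.9.

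The fold enrichment over input of the strongest peak, as MACS (the authors' peak caller) gave it, showed the same order. The median was 31.4 in replicate 1 and 30.8 in replicate 2 for members, 24.1 and 24.3 for shorter distal regions, and 35.9 and 33.9 for long regions near H3K4me3.

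Density was higher at greater length across the whole range of distal regions. The medians in replicates 1 and 2 were 9.62 and 9.74 below 2 kb (743 regions), 10.9 and 10.6 from 8 to 12 kb (2222 regions), 11.6 and 11.1 from 12 to 15 kb, 12.3 and 11.7 from 15 to 20 kb, and 12.9 and 12.1 at 20 kb or more. No step appeared at 12 kb. Among members, length and mean density had a Pearson r of 0.294 and a Spearman rho of 0.303 (n = 954), and among shorter distal regions the r was 0.259 (n = 23023). The points in each come from the same libraries and the same peak calls, so the correlations are descriptions.

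The 5 members of highest mean density were not among the 5 longest. chr9:57495292-57508631 (13339 bp) had a density of 17.3 in replicate 1 and 19.2 in replicate 2, and was 1 peak in each library with summits 3 bp apart. chr1:36122041-36147249 (25208 bp) had 16.8 and 17.8, and chr20:10573897-10594579 (20682 bp) had 18.0 and 16.6. These 3 were single peaks in both libraries that covered over 99% of the region. The next were chr22:34133275-34146760 (16.7 and 16.3) and chr15:20410949-20425242 (16.8 and 15.7), both under 15 kb. Summits lay farther apart in these 2 (8734 and 1284 bp) and in the members on chromosomes 1 and 20 (7524 and 12861 bp). None of the 5 was closer than 7644 bp to H3K4me3, and the farthest lay at 123747 bp.

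The replicates were close in tag density over the bases that each had called. The ratio of replicate 2 to replicate 1 had a median of 0.955 and ran from 0.600 to 1.27 over the 954 members. Counting error alone gives this ratio a relative standard error of 2.96% in the median member and 6.73% at most. Each density is taken over the bases called in its own library, so weaker bases that were not called drop out of it. The ratio therefore leaves out differences in called length, and its closeness to 1 is in part fixed by how density was defined. At chr2:31083980-31103927, with 300 tags in replicate 1 and 2919 in replicate 2, the ratio was 1.27. At chr6:6055649-6090120, with 7181 tags in replicate 1 and 1335 in replicate 2, the ratio was 0.814. Across members the densities of the libraries had a Pearson r of 0.719 and a Spearman rho of 0.700 (n = 954). No member was over 1.5-fold higher in replicate 2, where the background over all autosomal regions was 0.0258%. A single member (0.105%) was over 1.5-fold higher in replicate 1, against a background of 0.0602%, and the share rests on 1 member. With the tags of peaks within the FDR limit of the joint list alone, a choice made after seeing the data, the share past 1.5-fold in either direction was 0.839%. The backgrounds above do not belong to that choice, and none is given for it, so this share cannot be set against all autosomal regions.

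Below that limit, the members leaned toward replicate 1. Density was higher in replicate 1 in 665 members (69.7%) and higher in replicate 2 in 289 (30.3%). The share higher in replicate 1 was 51.7% among shorter distal regions and 74.9% among long regions near H3K4me3. The median ratio over all autosomal regions was 0.978. As each group has 1 library per animal, a difference between animals and one between libraries cannot be told apart.

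**Figure D3:**
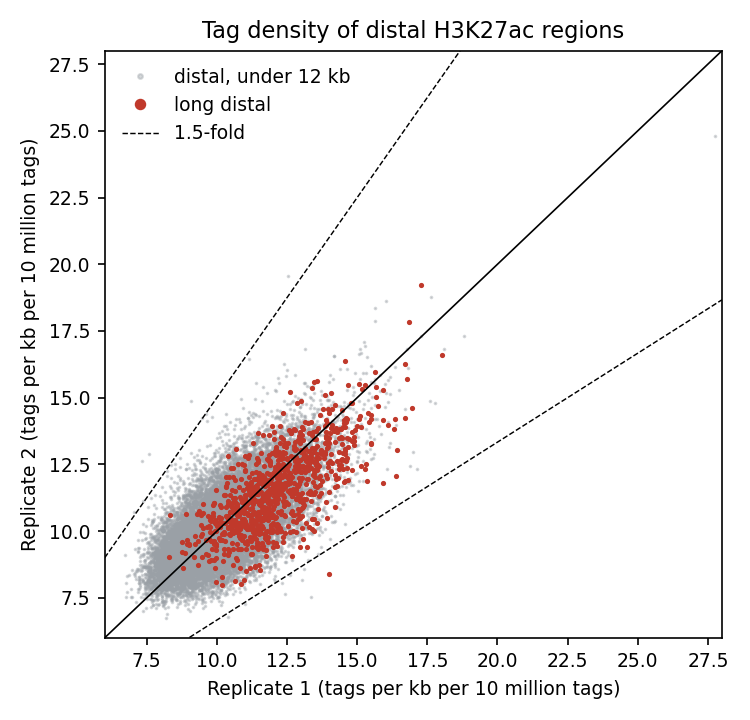
Tag density (tags per kb per 10 M tags) in replicate 2 against replicate 1 for each distal region, with long regions in red and shorter ones in grey; the solid line marks equality and the dashed lines a 1.5-fold difference. The red points have higher medians than the grey ones, 12 and 11.4 against 10.1 and 9.99, and 1 of the 954 lies outside the dashed lines. The highest densities, 27.8 and 24.8, belong to shorter regions.

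The member past 1.5-fold was chr3:180715222-180728360. It held 2648 tags in replicate 1 at a density of 14, in 1 peak over the whole 13138 bp, and 267 tags in replicate 2 at 8.39, in a peak of 2182 bp. Replicate 1 of H3K4me3 also had 4 peaks there and replicate 2 none, and the nearest joint H3K4me3 region was 5161 bp away. Both libraries of this fetus were thus the higher of their mark at this place. The next in that direction, chr11:21799945-21818520 (13.2 and 9.41) and chr5:48254595-48268006 (12.7 and 9.08), had ratios of 0.712 and 0.717.

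In the other direction, chr2:31083980-31103927 had the highest ratio. It held 300 tags in replicate 1 at a density of 8.33, over 12.5% of its length, and 2919 in replicate 2 at 10.6, over 94.7%. chr2:140266106-140281414 (10.4 and 12.8) and chr23:30950230-30963349 (10.7 and 13.1) followed, both well covered in each library.

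Most members were 1 peak in at least 1 library, and fewer than that in both. At an FDR of at most 10%, the limit of the joint list, a member held 1 peak of replicate 1 in 708 cases (74.2%) and 1 peak of replicate 2 in 564 (59.1%). The member was 1 peak in both libraries in 458 cases (48.0%) and more than 1 peak in both in 140 (14.7%). Of shorter distal regions, 93.6% were 1 peak in both. Long regions near H3K4me3 had the same share as members, 48.0%. Among members, 3 or more peaks were held by 27 (2.83%) in replicate 1 and 75 (7.86%) in replicate 2.

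Breaks in the call were more frequent in replicate 2. It had more peaks than replicate 1 in 277 members (29.0%) and fewer in 113 (11.8%). The share that was 1 peak in both libraries was lower at greater length, from 54.0% at 12 to 15 kb to 44.3% at 15 to 20 kb and 31.9% at 20 kb or more.

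Whether a member reached 12 kb could rest on 1 library. Peaks at any FDR are counted here, including those above the limit, which did not set the joint regions. A single peak of 12 kb or more was found in replicate 1 for 638 members (66.9%), in replicate 2 for 429 (45.0%) and in both for 273 (28.6%). In replicate 1 alone it was found for 365 (38.3%) and in replicate 2 alone for 156 (16.4%). In 160 members (16.8%) no peak of either library was that long, and the length came from joining peaks that overlap across libraries. With the same rule applied to the peaks of 1 library, 728 long distal regions were found in replicate 1 and 531 in replicate 2.

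Peaks of each library lay over most of the length of the typical member. Joint regions are merged from overlapping peaks of both libraries, so high cover is in part fixed by how they were made. Peaks covered a median of 99.1% of the member in replicate 1 and 95.1% in replicate 2, and bases in peaks of both made up a median of 87.1%. That last median was 85.1% in shorter distal regions and 89.3% in long regions near H3K4me3. Cover was under 50% in 14 members (1.47%) in replicate 1 and in 63 (6.60%) in replicate 2.

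The strongest point within a long region was less fixed than in a short one. The summits of the libraries lay a median of 470 bp apart in members and 161 bp apart in shorter distal regions. They lay within 100 bp in 320 members (33.5%), within 1 kb in 576 (60.4%) and over 5 kb apart in 154 (16.1%). For shorter distal regions these shares were 42.0%, 84.4% and 0.643%, and a short region leaves less room for summits to part. The median for long regions near H3K4me3 was 468 bp, close to that of members.

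The distance to H3K4me3 beyond the 5 kb of the rule varied over more than 2 orders of magnitude. The median member lay 48264 bp from the nearest joint H3K4me3 region, with a 25th to 75th percentile of 21333 to 106515 bp. Shorter distal regions had a median of 55732 bp. Within 10 kb lay 82 members (8.60%), at 10 to 20 kb 139 (14.6%), at 20 to 50 kb 262 (27.5%), at 50 to 100 kb 217 (22.7%) and at 100 to 500 kb 231 (24.2%). The remaining 23 (2.41%) lay beyond 500 kb, against 3.90% of shorter distal regions.

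Neither length nor density followed this distance. The Pearson r over members was 0.0284 between length and distance and 0.0167 between mean density and distance (n = 954 each). The nearest member was chr13:56803058-56818819, at 5105 bp, with a density of 13.3 in replicate 1 and 11.4 in replicate 2. The farthest was chr20:33449373-33471495, of 22122 bp, at 1182254 bp from H3K4me3. It held 4052 and 4299 tags at a density of 13.0 and 13.6, so it was above the median of members in both libraries.

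Long distal regions had other H3K27ac regions close by. The gap to the next H3K27ac region, of any length, had a median of 3150 bp, against 6761 bp for shorter distal regions and 2106 bp for long regions near H3K4me3. Another region lay within 20 kb of 861 members (90.3%), against 75.6% of shorter distal regions and 88.1% of long regions near H3K4me3. Within 1 kb the counts were 317 members (33.2%) against 20.4% and 40.0%. The share with a neighbour within 20 kb was 88.0% at 12 to 15 kb, 92.1% at 15 to 20 kb and 95% at 20 kb or more. Only 6 members (0.629%) had none within 100 kb, against 4.08% of shorter distal regions.

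**Figure D4:**
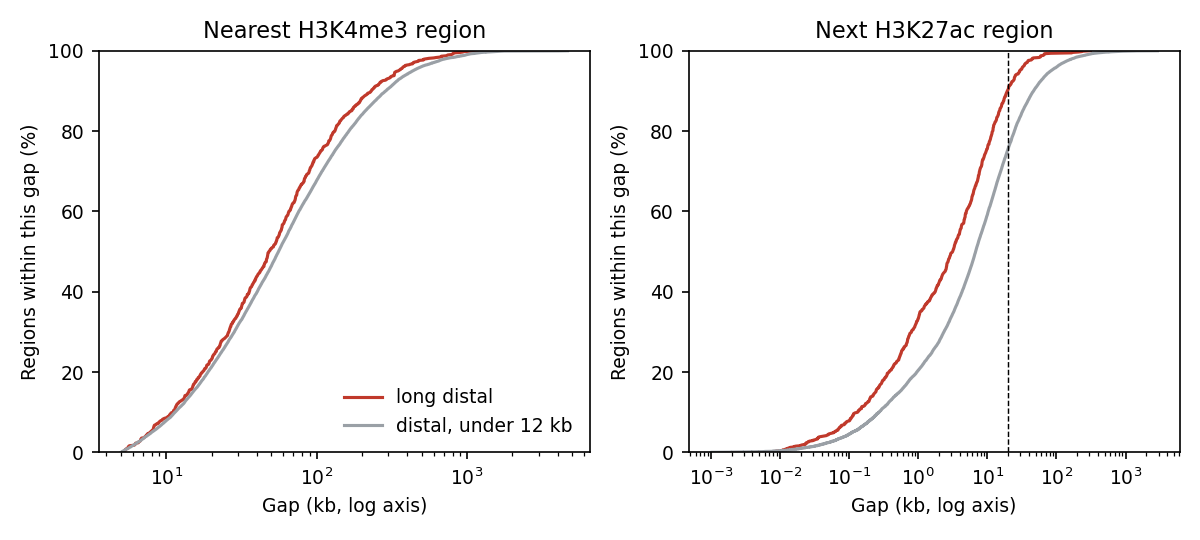
Cumulative percent of regions whose gap to the nearest H3K4me3 region (left) or to the next H3K27ac region (right) is at most the value on the x axis, in kb on a log axis; long distal regions are red and shorter ones grey, and the dashed line marks 20 kb. The curves run close together on the left (medians 48264 and 55732 bp) and apart on the right (medians 3150 and 6761 bp).

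Members also lay near each other, though less closely. The gap from a member to the nearest other member had a median of 184306 bp and ran from 20 to 19464478 bp. Within 1 kb of another lay 34 members, in 17 pairs, so that a small change in peak calling would join them. Within 20 kb of another lay 119 members (12.5%), in 57 groups, of which 5 held 3 members each and the others 2. Within 100 kb lay 371 (38.9%), in 162 groups of up to 6, and within 1 Mb 725 (76.0%).

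The 5 groups of 3 within 20 kb spanned 60.7 to 80.6 kb. They lay at chr13:56548574-56609313, chr19:14367619-14443912, chr2:82092755-82165101, chr20:41113189-41193766 and chr3:80949858-81013244. Acetylated members filled 63.4 of the 80.6 kb of the group on chromosome 20, whose members measured 17087 to 27026 bp. This group lay 378 to 439 kb from H3K4me3, farther than the others, whose members lay 19.3 to 89.1 kb away. Its densities spanned 9.22 to 14 (replicate 1) and 9.80 to 11.5 (replicate 2).

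The densest stretch of up to 1 Mb lay on chromosome 3, from 77376253 to 78234219. Its 8 members covered 117 of 858 kb, and together with shorter ones 43 H3K27ac regions covered 315 kb. Densities of the 8 spanned 10.4 to 14.5 (replicate 1) and 9.72 to 12.9 (replicate 2), within the range of the other members. In 7 of the 8 replicate 1 was the higher library. Of the 8, 6 followed each other without a gap over 100 kb, from 77923837 to 78234219, and formed the largest group at that limit. The stretch also held 9 joint H3K4me3 regions and 2 H3K27me3 regions, none of them within a member.

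**Figure D5:**
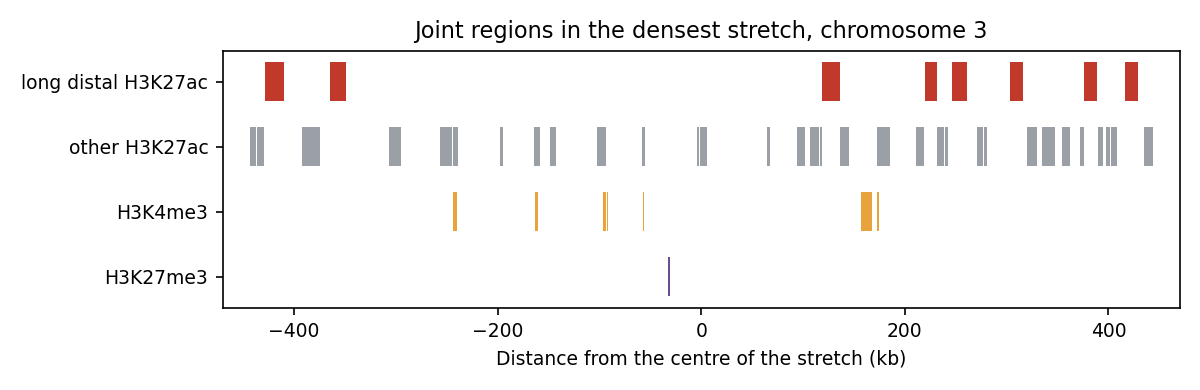
Joint regions along the densest stretch, on chromosome 3, as bars at their distance in kb from its centre, with long distal H3K27ac, other H3K27ac, H3K4me3 and H3K27me3 regions in separate rows. The 8 long regions sit 2 to the left and 6 to the right of a central part that holds 6 of the 9 H3K4me3 regions and both H3K27me3 regions.

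Chromosomes differed in the number of members for their length. Over the autosomes there were 3.89 members per 10 Mb. Chromosome 20 had 6.46 (33 members), chromosome 22 had 5.90 (30) and chromosome 25 had 5.73 (26). The lowest values were 1.37 on chromosome 6 (16 members), 1.75 on chromosome 14 (11) and 1.90 on chromosome 24 (8). As a share of the distal regions of each chromosome, members made up 5.53% on chromosome 20, 5.83% on chromosome 22 and 1.83% on chromosome 6. This share was 3.98% over the autosomes. The 2 orders differed in places: chromosome 21 had a share of 5.67% at 3.80 members per 10 Mb, and chromosome 14 a share of 3.19%. The counts per chromosome are small, and a cause of the differences was not tested. The largest chromosomes held the most members, 118 on chromosome 1, 112 on chromosome 2 and 99 on chromosome 3.

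The joint H3K4me3 list is strict, with an FDR of at most 1% in both libraries, and members were not free of weaker H3K4me3. A peak of H3K4me3 at any FDR was present in 448 members (47.0%) in replicate 1 and in 690 (72.3%) in replicate 2. Peaks of both libraries that overlap each other were present in 355 (37.2%), and 206 (21.6%) had none in either. Under a rule that barred every such peak of either library within 5 kb, 146 members would be left. In shorter distal regions the shares were 16.0%, 35.2%, 12.4% and 61.4%.

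Per base, members and shorter distal regions were closer to each other in H3K4me3. Members held 4.38 H3K4me3 peaks per 100 kb in replicate 1 and 7.63 in replicate 2, and shorter distal regions 3.67 and 8.05. Such peaks covered 6.37 and 11.6% of the bases of members, 4.46 and 10.4% of those of shorter distal regions, and 33.1 and 40.5% of those of long regions near joint H3K4me3. The peaks in members had a median FDR of 2.15% in replicate 1 and 2.55% in replicate 2. Of 658 and 1146 such peaks, 61 (9.27%) and 124 (10.8%) passed 1%. In shorter distal regions, which the same rule keeps clear of joint H3K4me3, 11.8 and 7.14% did. The rule itself removes regions where peaks of both libraries pass 1% and overlap, so low shares were fixed by it.

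The longest members show this. In the 35880 bp region on chromosome 19, replicate 1 had 2 H3K4me3 peaks, at an FDR of 3.21 and 1.96%, and replicate 2 had 4, of which 2 passed 1% (0.540 and 0.900%). The region of 32269 bp on chromosome 7 had 2 in each library, and 1 in each passed 1%, at 0.350 and 0.890%. These 2 peaks did not overlap each other, each overlapped a peak above 1% in the other library, and the joint H3K4me3 list holds neither. The word distal therefore refers here to the joint list, and not to an absence of H3K4me3.

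H3K27me3, the mark of Polycomb repression, was rare in the long distal regions and also in the shorter ones. The authors' joint list for the same tissue overlapped 6 members (0.629%), against 174 shorter distal regions (0.756%) and 29 long regions near H3K4me3 (4.20%). It covered 0.0666% of the bases of members, 0.290% of those of shorter distal regions, 1.37% of those of long regions near H3K4me3 and 1.97% of the autosomes. Of all autosomal H3K27ac regions it overlapped 620 (1.78%) and covered 0.738% of the bases. No member was covered to 50%.

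The most bases were shared by chr1:41681201-41696957 (2689 bp, 17.1% of the member), chr9:35034329-35047252 (2396 bp, 18.5%) and chr1:71112551-71124693 (1699 bp, 14%). The densities of the first were 11.7 in replicate 1 and 9.98 in replicate 2. Those of the member on chromosome 9 were 8.80 and 8.63, at the low end of members in both libraries. The member at 71 Mb of chromosome 1 had 10.2 and 11.3. The other 3 lay on chromosomes 20, 3 and 25, with 1696, 1454 and 60 bp shared.

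Few members touched the regions that the study lists as selective sweeps, stretches where domestic sheep show signs of past selection. There were 12 such members (1.26%), the same share as of shorter distal regions (1.26%) and near that of all autosomal regions (1.30%). A longer region has more room to touch a sweep region, and the shares were not adjusted for length. The 12 members touched 10 of 635 listed sweep regions. Gene names below are those listed for the sweep regions, and these members were chosen after their values were seen. A name says nothing of which gene a region acts on.

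Some of these members are given here by the gene listed. At CD44, the receptor of hyaluronan, chr15:63955764-63968541 held 2242 tags in replicate 1 and 2005 in replicate 2 and was 1 peak in each.

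At AGMO, an enzyme that cleaves ether lipids, chr4:23777050-23792186 held 2046 and 2724 tags. At ABLIM3, an actin-binding protein, chr5:58046804-58060237 held 1746 and 1978. At ZNF609, a zinc finger protein, chr7:42632126-42651515 held 3695 and 4057, at a density of 13.7 and 14.4.

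3 further members touched sweep regions with no gene inside. On chromosome 16 the closest gene listed has no symbol, and the member chr16:41553612-41567605 held 2285 and 2297 tags. On chromosome 6 it is KIT, the receptor of stem cell factor, and the member chr6:70276873-70291337 held 1791 and 2190 tags. On chromosome 8 it is MARCKS, a substrate of protein kinase C, and the member chr8:23852436-23875332 was, at 22896 bp, the longest of the 12, with 4621 and 4850 tags at a density of 14.1 and 14.6. A sweep region on chromosome 9, listed with a gene that has no symbol, touched 3 members, from 25461249 to 25562346, all of them denser in replicate 1 (11.7 to 12.1) than in replicate 2 (9.71 to 10.5).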

How the data were processed

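H3K27ac and H3K4me3 ChIP-Seq libraries of 2 fetuses and a pooled input were mapped by the authors to Oar_v3.1, and peaks were called per library with MACS 1.4.2 at a p-value of 1.00e-05. For each peak the deposited files give the tag count, the score (a log10 p-value scale), the fold enrichment as a ratio to the input, and the FDR in percent; the joint lists give positions. Depth was read from the file headers.

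Members were found by the length and H3K4me3 rule. Tags of every peak overlapping a region by at least 1 bp, at any FDR, were summed, divided by the kb covered and scaled to 10 M tags. Peaks within were counted at an FDR of at most 10%. With 2 libraries no test was run. Named regions are the 5 longest, 5 densest, 3 most different in each direction, nearest and farthest from H3K4me3, 3 on each side of the threshold, the densest stretch and 3 with most H3K27me3. Members, lists and rules were chosen with earlier results of these data known. Where the study's list of sweep regions was used, positions and gene names alone were taken from it.

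Genes near the regions and their sequences were not analysed here, nor were 2 per-library H3K27me3 files. Samples were grouped by the labels. Alternatives changed the length, distance, FDR limit, H3K4me3 list, joining of regions and library. The interval code was tested on simulated data and found 50 of 50 regions. Python 3.11.15, numpy 2.4.6, pandas 2.3.3 and matplotlib 3.10.9 were used.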

Additional observations from a re-analysis of the deposited data

Results flagged for a closer look

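Signal outside the joint list was found in H3K27ac peaks above its FDR limit. Merging the overlapping peaks of both libraries at an FDR of at most 10% gave 35265 of the 35266 joint regions with the same ends, and with no limit the same rule gave 1130 long distal regions. Of these, 905 had the ends of a member, 49 overlapped a member with other ends, 25 overlapped another joint region and 151 overlapped no joint region. The 151 were denser than members, with a median of 14 tags per kb per 10 M tags in replicate 1 and 13.9 in replicate 2 (range 10.6 to 17.7 and 10.1 to 18.8), and a median top fold enrichment of 38.8 and 38.9. Their median length was 13630 bp and the longest measured 29807 bp.

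The peaks above the limit, 1559 in replicate 1 and 1889 in replicate 2, were those of highest score. Scores within the limit ended at 518 and 463, and those above it began there. By length, the regions absent from the joint list were 102 of 628 (16.2%) at 12 to 15 kb, 41 of 368 (11.1%) at 15 to 20 kb and 8 of 134 (5.97%) at 20 kb or more. The densest was chr4:40576932-40595105, of 18173 bp, with 4482 and 4983 tags at a density of 17.4 and 18.8. The next were chr5:50020760-50037318 (17.7 and 15.8) and chr11:9882249-9897839 (17.7 and 15.8). A peak above the limit also overlapped 106 members (11.1%) and 14.1% of long regions near H3K4me3. That share was 0.243% in shorter distal regions and 0.923% over all autosomal regions. In 49 members (5.14%) a counted peak ran past the ends of the region. This was so in 5.36% of long regions near H3K4me3, 0.208% of shorter distal regions and 0.527% of all autosomal regions.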

How the results depend on the processing

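The number of members depended on the rule. It was 1648 with a length of 10 kb, 437 with 15 kb, 146 with every H3K4me3 peak of either library barred, and 1569 when regions under 1 kb apart were joined. Without 1 replicate it ranged from 531 to 728. It stayed within 1.5 times of 954, at 872 to 1130, when the H3K4me3 distance was 0, 1 or 10 kb, when the FDR limit was dropped, and when chromosome X was kept (956, an alternative chosen after seeing the data).

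The share with a neighbour within 20 kb was 87.7% with a length of 10 kb, 92.9% with 15 kb, 92.2% with no FDR limit, and 95.1 to 96.4% in 1 library. The share that was 1 peak in each library was 52.2% and 41.0% with those lengths, 44.3% with no FDR limit and 40.6% with peaks at any FDR counted. Median density was 12.4 in replicate 1 with 15 kb, and 12.4 in each library when its own peaks alone set the regions. The median distance to H3K4me3 was 56.5 kb with a distance of 10 kb. No member overlapped H3K27me3 over 50% of its length (0%). The share past 1.5-fold was 0% with a length of 15 kb, a distance of 10 kb or a limit of 2-fold. It was 0.839% with tags of peaks within the FDR limit alone, chosen after seeing the data. No share over all autosomal regions is given for these alternatives.

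No paired analysis was possible because the results come from no test. The input held fewer tags than any other library, which limits the fold enrichment and FDR, and 2 animals limit every statement on replicates.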
